A study of Mus musculus with 12 samples.

Results

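The transcripts described here encode subunits of the mitochondrial respiratory chain, measured in T cells taken from mouse pancreatic tumors on a metabolic gene panel. They were picked by symbol, as every endogenous panel gene whose name begins with Nduf, Sdha to Sdhd, Uqcr, Cox4 to Cox8, Atp5, Cyc1 or Cycs. No expression value entered this rule, but it was set with earlier results of these data known. This gave 32 of the 748 endogenous genes. Complex I had 16 (Ndufa1, Ndufa2, Ndufa3, Ndufa6, Ndufa7, Ndufa11, Ndufa12, Ndufa13, Ndufb2, Ndufb4, Ndufb7, Ndufb8, Ndufb10, Ndufb11, Ndufs7 and Ndufs8), complex II had 2 (Sdhb and Sdhc), complex III had 3 (Uqcr10, Uqcr11 and Uqcrq), complex IV had 9 (Cox4i1, Cox5a, Cox5b, Cox6a1, Cox6b1, Cox7b, Cox7c, Cox8a and Ndufa4, which is counted with complex IV) and ATP synthase had 2 (Atp5d and Atp5k). Sdha was on the panel as 1 of its 20 housekeeping probes and was not counted. The 32 genes were all nuclear, and 0 of them was cytochrome c.

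The study asked how blocking receptors of vasoactive intestinal peptide (VIP), alone and with PD-1 checkpoint blockade, changes T cells in pancreatic cancer. Young adult female C57BL/6 mice carried subcutaneous tumors grown from 500000 KPC-Luc cells, a luciferase-bearing line from a mouse pancreatic adenocarcinoma, and treatment began 6 to 7 days later and lasted 10 days. Each mouse received 10 µg of peptide daily under the skin, either a scrambled sequence (Scram) or the VIP receptor antagonist ANT008, and 200 µg of antibody into the peritoneum every 3 days, either isotype IgG or anti-PD-1 (aPD-1). The groups, of 3 mice each, were Scram+IgG (controls), ANT008+IgG and Scram+aPD-1 (a single agent each) and ANT008+aPD-1 (the combination), and every mouse carried the same tumor line and received both a peptide and an antibody. T cells were drawn from tumor suspensions by magnetic beads against CD90.2 and were 80 to 85% pure per the labels. Some RNA could come from other cells, and a purity by cells does not give the share of RNA. A tumor from 1 implanted line in 1 mouse strain is the model, and the 12 RNA samples ran as 12 lanes of an nCounter cartridge, which counts barcoded probes bound to RNA without amplification.

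Complexes I and II pass electrons from NADH and succinate to ubiquinone, complex III hands them to cytochrome c, and complex IV gives them to oxygen. Complexes I, III and IV pump protons as they do so, and ATP synthase, also called complex V, uses the proton gradient to make ATP. In T cells respiration supports activation and long-lived memory, and loss of mitochondrial capacity is a known feature of exhausted T cells in tumors. The nuclear subunit genes are classical targets of the transcription factor NRF1, whose binding site is a palindrome rich in G and C.

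The promoters of these genes are shown first. Whether promoter sequence bears on how the transcripts varied between lanes was not tested. RefSeq windows (build GRCm38.p6) were at hand for 28 of the 32 genes, and the 250 bases before the gene start were searched on both strands. The NRF1 core GCGCATGC was present in 5 genes (Atp5k, Cox6a1, Ndufa6, Ndufa11 and Sdhb), which is 17.9% of the 28, against 4.77% of the 587 panel genes and 2.56% of all 27025 genes with a window. The core bound by GABPA, CCGGAAGT, was present in 1 (Uqcr11), or 3.57%, against 3.23% of all genes. The YY1 core AAGATGGC and the estrogen-related receptor site TCAAGGTCA were found in 0 of the 28, against 1.83% and 0.422% of all genes. A match is a string of letters, not a measured binding site. Stretches of 120 bases, 5′ to 3′ along the gene, are given below for 3 genes whose transcripts differed in how they varied between lanes, with the NRF1 core or its reverse complement in capitals; in Atp5k both overlap and form the full palindrome.
Atp5k, chr5:108434400-108434519, strand minus: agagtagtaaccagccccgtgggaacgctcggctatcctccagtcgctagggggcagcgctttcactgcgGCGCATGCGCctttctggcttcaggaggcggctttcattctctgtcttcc
Ndufa6, chr15:82354311-82354430, strand minus: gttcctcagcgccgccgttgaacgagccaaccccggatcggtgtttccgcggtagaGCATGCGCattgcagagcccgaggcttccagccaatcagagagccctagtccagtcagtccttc
Sdhb, chr4:140961151-140961270, strand plus: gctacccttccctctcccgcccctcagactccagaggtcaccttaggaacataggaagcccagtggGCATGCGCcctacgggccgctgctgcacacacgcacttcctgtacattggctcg

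Depth limited all that follows. Endogenous counts summed to between 5776 (ANT008+aPD-1 mouse 1) and 1486646 (Scram+IgG mouse 3), and ANT008+aPD-1 mouse 3 reached 24813. Background, the mean plus 2 SD of the 8 negative probes, lay between 9.94 and 28.2 counts. Between 30 and 32 members exceeded it in each of the 9 lanes of the other groups, but 15, 31 and 28 did in ANT008+aPD-1 mice 1, 2 and 3, and 15 members did so in all 12 lanes. An unexplained flag stood over 2 lanes of the deposited table, that of mouse 1 in ANT008+IgG and that of mouse 1 in Scram+IgG. Counts were divided by a lane size, the geometric mean of the 3 housekeeping genes detected in every lane (Dnajc14, Oaz1 and Ubb), and are called scaled counts. The scaled values of these genes were not constant themselves, with Dnajc14 between 199.6 and 700.4 and Oaz1 between 540.4 and 1522. Probes bind with unlike efficiency, so levels were compared between lanes and not between genes.

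Respiratory chain transcripts differed more between mice of a group than between groups. The median scaled count of the 32 genes was 420.2, 778 and 565 in Scram+IgG mice 1 to 3. It was 404, 999.9 and 382 in ANT008+IgG, 486, 435 and 963 in Scram+aPD-1, and 324, 352 and 572 in ANT008+aPD-1. The means were 588 ± 180.2, 595 ± 350.4, 628 ± 291 and 416 ± 135 (SD, n = 3 each), so the groups overlapped. In such bulk samples fewer cells of a type and less RNA per cell cannot be told apart. A single mouse stood highest in each group for most genes. In Scram+IgG, mouse 2 had the highest value for 26 of 32 members, against 47.8% of the 640 genes detected well enough to be tested. ANT008+IgG mouse 2 was highest for 26 of 32 (55.6% of the 640), Scram+aPD-1 mouse 3 for 25 of 32 (61.4%), and ANT008+aPD-1 mouse 3 for 26 of 32 (45.2%). Scram+IgG mouse 1 was lowest for 29 of 32 members, against 52.7% of the 640. These shares describe the lanes and were not tested.

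**Figure D1:**
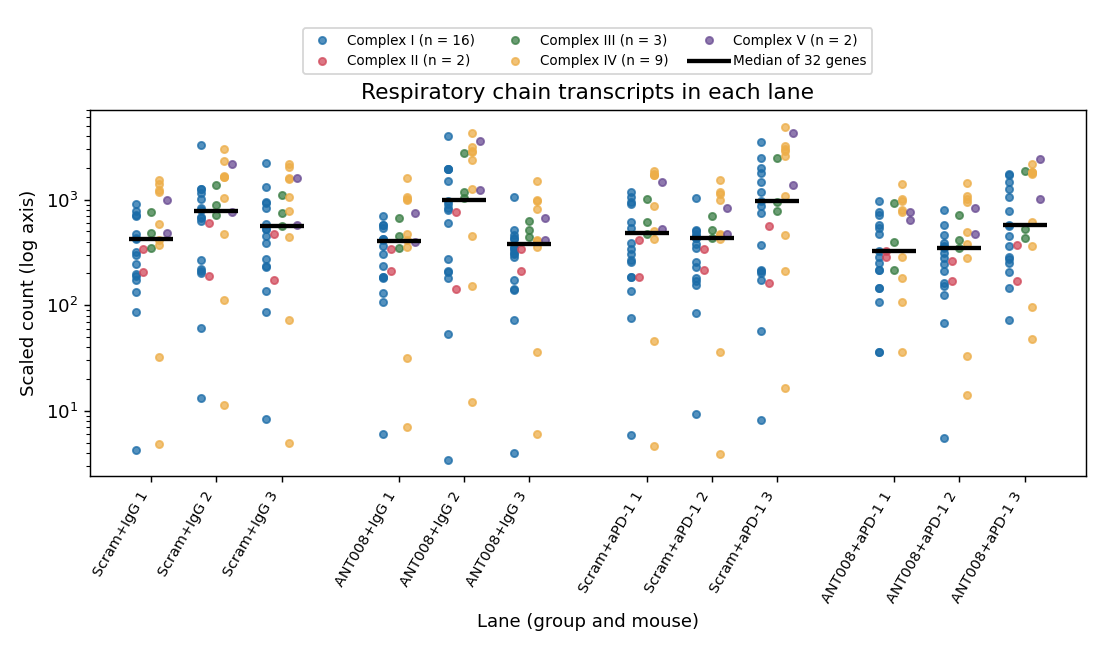
Scaled counts (log axis) of the 32 respiratory chain transcripts in each of the 12 lanes, 1 point per gene, coloured by complex, with a bar at the median. The bar sits at 778 in Scram+IgG mouse 2, 999.9 in ANT008+IgG mouse 2 and 963 in Scram+aPD-1 mouse 3, above the other mice of their groups.

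The same mice were highest in their groups when no lane size was used. The 32 genes took 7.30% of endogenous counts in Scram+IgG mouse 1 (95% Wilson interval 7.26 to 7.34%), 12.7% in mouse 2 (12.6 to 12.9%) and 10.6% in mouse 3 (10.6 to 10.7%). In ANT008+IgG the shares were 6.71% (6.67 to 6.76%), 12.8% (12.6 to 12.9%) and 7.04% (6.88 to 7.20%). In Scram+aPD-1 they were 7.98% (7.94 to 8.02%), 7.64% (7.57 to 7.70%) and 11.8% (11.6 to 12.0%). ANT008+aPD-1 gave 7.17% (6.53 to 7.86%), 6.49% (6.40 to 6.58%) and 9.56% (9.20 to 9.93%). These intervals cover counting error only, and in each group that of the highest mouse did not overlap those of the others.

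Across the 11 lanes other than ANT008+aPD-1 mouse 1, 10 members differed by more than 5-fold between the highest and the lowest lane, 18 by 2-fold to 5-fold, and 4 by less than 2-fold. Among the 18 the spread ran from 2.20-fold for Cox6a1, a subunit of complex IV, to 4.95-fold for Cox7c. The 10 were Atp5k, Cox4i1, Cox7b, Cox8a, Ndufa2, Ndufa3, Ndufa6, Ndufa11, Ndufb7 and Ndufs7, and the 4 were Cox6b1, Ndufb10, Ndufb11 and Sdhb. Subunits of one complex therefore fell on both sides. Cox7b and Ndufa11 belong to the first set through counts near background, described further on.

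In complex I, Ndufs7, an iron-sulfur subunit on the electron path, varied 5.62-fold over the 11 lanes. Its scaled count was 471, 1255 and 833 in Scram+IgG mice 1 to 3, 413, 1964 and 357 in ANT008+IgG, 614, 432 and 2008 in Scram+aPD-1, and 721, 364 and 1251 in ANT008+aPD-1. The highest lanes were those already named, and all 4 groups overlapped. Ndufb7, an accessory subunit of the membrane arm, had 900.2, 3271 and 2243 in Scram+IgG, 707, 4048 and 1059.8 in ANT008+IgG, 1171, 1031 and 3484 in Scram+aPD-1, and 973, 791 and 1721 in ANT008+aPD-1. Ndufa6, an accessory subunit, spread most among the well-detected members, 9.06-fold, from 129 in ANT008+IgG mouse 1 to 1172 in Scram+aPD-1 mouse 3.

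Other complex I genes did not share this spread. Ndufs8, the other iron-sulfur subunit measured, had 134, 203 and 137 in Scram+IgG, 187, 212 and 311 in ANT008+IgG, 138, 232 and 201 in Scram+aPD-1, and 216, 151 and 205 in ANT008+aPD-1. Its highest lane was ANT008+IgG mouse 3, in which Ndufs7 was lowest. Ndufb2, a small subunit of the membrane arm, had 172, 222 and 229 in Scram+IgG, 187, 277 and 144 in ANT008+IgG, 186, 169 and 172 in Scram+aPD-1, and 144, 124 and 253 in ANT008+aPD-1. Ndufb11, also of the membrane arm, had 198, 209 and 234 in Scram+IgG, 183, 205 and 139.7 in ANT008+IgG, 186, 156 and 209 in Scram+aPD-1, and 36.0, 164 and 277 in ANT008+aPD-1, where 36.0 stands for 1 count. No lane was the highest of the 12 for more than 1 of these 3 genes. Ndufa12, an accessory subunit near the iron-sulfur clusters, ran the other way. It was 361, 181 and 423 in ANT008+IgG mice 1 to 3 and 258, 380.2 and 217 in Scram+aPD-1, so the mouse highest for Ndufs7 was the lowest of its group for Ndufa12.

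Complex II, which is also an enzyme of the citric acid cycle, split between its subunits. Sdhb, the iron-sulfur subunit, was nearly level, at 208, 188 and 173 in Scram+IgG, 212, 141 and 209.6 in ANT008+IgG, 186, 214 and 164 in Scram+aPD-1, and 288, 170.4 and 168 in ANT008+aPD-1, where 288 stands for 8 counts. Sdhc, a membrane anchor of the complex, had 343, 607 and 477 in Scram+IgG, 344, 762 and 339 in ANT008+IgG, 412, 341 and 561 in Scram+aPD-1, and 324, 264 and 373 in ANT008+aPD-1. Sdhc was highest in the same mouse as Ndufs7 in every group, and Sdhb in none. The housekeeping probe Sdha, for the catalytic subunit, was low where Ndufs7 was high, at 332, 89.5 and 269 in ANT008+IgG and 223, 286 and 98.4 in Scram+aPD-1.

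The 3 complex III genes encode small accessory subunits, and all were highest in mouse 2 of both IgG groups and mouse 3 of both aPD-1 groups. Uqcrq had 769.7, 1363 and 1118 in Scram+IgG, 671, 2743 and 625 in ANT008+IgG, 1017, 699 and 2459 in Scram+aPD-1, and 937, 713 and 1853 in ANT008+aPD-1. Uqcr10 spread less. Its ANT008+aPD-1 values lay close together, though that of mouse 1 stands for 11 counts, as given with the comparison of the groups.

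Complex IV also held both kinds of subunit. Cox4i1, a regulatory subunit present in most tissues, had 595, 1651 and 1058 in Scram+IgG, 417, 2910.1 and 407 in ANT008+IgG, 867, 471 and 3209 in Scram+aPD-1, and 973, 499 and 1793 in ANT008+aPD-1. Cox7c, a small membrane subunit, followed with 1238, 3002 and 2179.9, then 1023, 4240.3 and 994, then 1757, 1184 and 4922, then 757, 1073 and 1745 in the same order of lanes. Cox6b1, which lies on the face toward cytochrome c, had 371, 468 and 439 in Scram+IgG, 474, 449 and 417 in ANT008+IgG, 421, 425 and 459 in Scram+aPD-1, and 180.2, 382 and 361 in ANT008+aPD-1, a spread of 1.31-fold over the 11 lanes. In ATP synthase, Atp5k, the e subunit of the membrane sector, had 997, 2196 and 1603 in Scram+IgG, 743, 3589.8 and 665 in ANT008+IgG, 1479.6, 831 and 4234 in Scram+aPD-1, and 757, 836 and 2431 in ANT008+aPD-1. Atp5d, the delta subunit of the rotating stalk, varied 3.50-fold and was highest in the same mouse of each group as Atp5k.

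**Figure D2:**
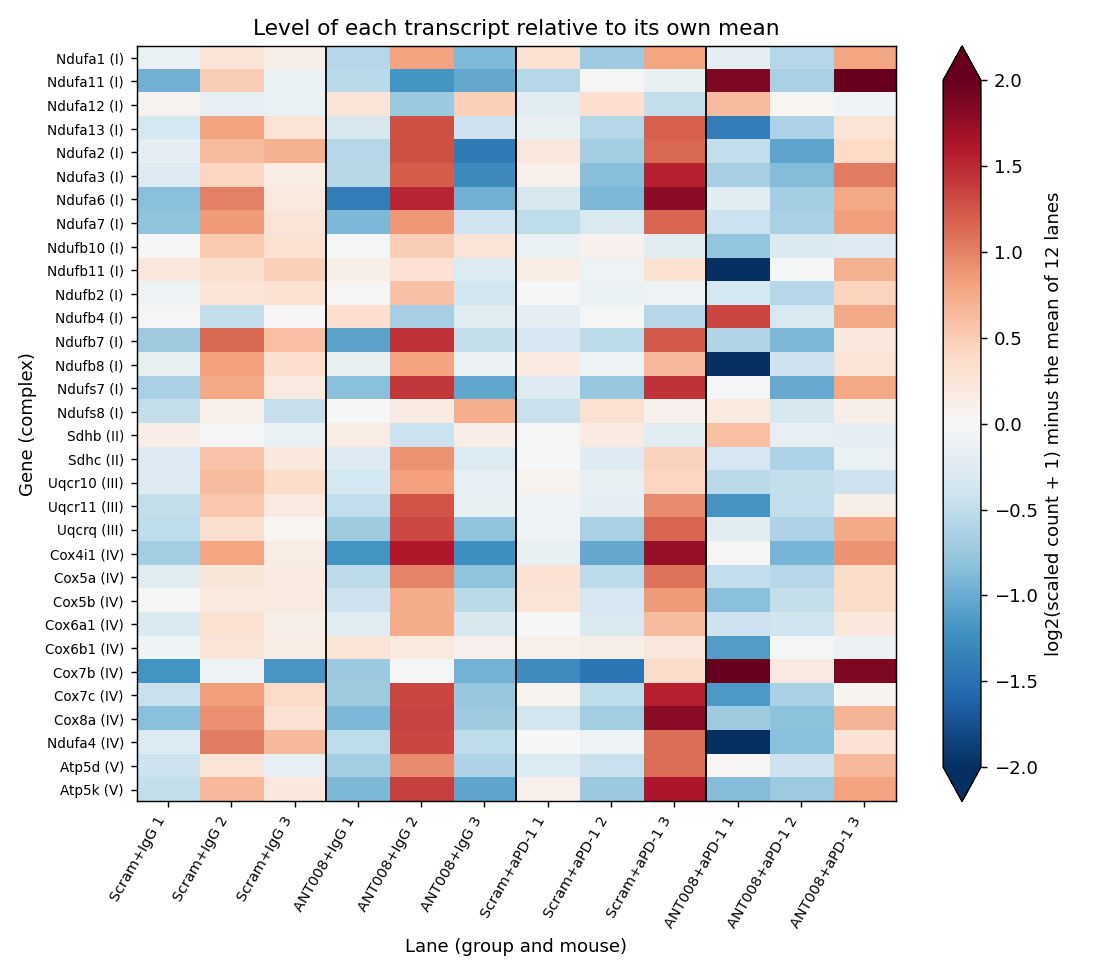
Each of the 32 transcripts (rows, with its complex) in the 12 lanes (columns), as log2(scaled count + 1) minus that gene's mean over the lanes, with red higher, blue lower and the scale ending at −2 and 2. Most rows are red in ANT008+IgG mouse 2 and Scram+aPD-1 mouse 3, while Ndufa12, Ndufb4 and Sdhb are blue there, and Cox7b and Ndufa11 are red mainly in ANT008+aPD-1 mice 1 and 3.

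Ratios of raw counts within a lane carry no lane size, and they showed that the subunits changed unequally. Pairs were picked after their values were seen, so they are a description. Cox4i1 over Sdhb was 2.86, 8.80 and 6.11 in Scram+IgG mice 1 to 3. It was 1.96, 20.6 and 1.94 in ANT008+IgG, 4.66, 2.20 and 19.6 in Scram+aPD-1, and 3.38, 2.93 and 10.6 in ANT008+aPD-1. Members of 1 complex diverged too, since Ndufs7 over Ndufa12 was 1.14, 10.9 and 0.844 in ANT008+IgG and 2.38, 1.14 and 9.25 in Scram+aPD-1. By contrast Cox4i1 over Ndufs7, from 2 complexes, stayed between 1.01 and 1.60 over all 12 lanes.

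Markers of other cells also moved between these lanes. Of the 9 stromal markers listed, 2 were on the panel, Col6a1 (a collagen chain made by fibroblasts) and Pdgfrb (a receptor of fibroblasts and pericytes), and defining collagens such as Col1a1 could not be measured. Their summed scaled count was 329, 2490.0 and 1512 in Scram+IgG, 365, 2697 and 497 in ANT008+IgG, 335, 417 and 1770.5 in Scram+aPD-1, and 469, 301 and 686 in ANT008+aPD-1. Its highest mouse was the highest for the member median in every group. Col6a1 made up most of it, while Pdgfrb had 3 to 161 counts in a lane, and in ANT008+aPD-1 mouse 1 they had 10 and 3 counts. The match was that of Col6a1. Scaled Pdgfrb was 11.5, 8.57 and 13.3 in Scram+IgG and 25.6, 13.8 and 25.9 in ANT008+IgG, lowest in mouse 2 of both. It was 7.47, 6.97 and 36.9 in Scram+aPD-1, where mouse 3 had 9 counts, and 108, 3.16 and 48.1 in ANT008+aPD-1. Other collagen chains outside the list were on the panel and did not all follow Col6a1. In ANT008+aPD-1 mice 1 to 3, Col6a2 had 469, 514 and 433 and Col6a3 had 288, 290 and 72.2, both lowest in mouse 3. Col6a2 was highest in the same mouse as Col6a1 in the other groups. Col6a3 was highest in mouse 3 of Scram+IgG (872) and mouse 2 of Scram+aPD-1 (508). All 11 T cell markers were tested, and they did not all move together. Cd3e, a chain of the T cell receptor complex, had 595, 56.2 and 56.6 in Scram+IgG, 398, 74.0 and 119.8 in ANT008+IgG, 273, 163 and 69.7 in Scram+aPD-1, and 288, 388 and 289 in ANT008+aPD-1. Cd28, a costimulatory receptor, had 398, 142 and 152 in Scram+IgG, 237, 521 and 267 in ANT008+IgG, 446, 210.4 and 918 in Scram+aPD-1, and 973, 658 and 1419.9 in ANT008+aPD-1, so in 3 groups it was highest in the mouse highest for the member median. The sum of the 11 was 5259, 884 and 896 in Scram+IgG, 3497, 1769 and 1738 in ANT008+IgG, 3402, 1833 and 2656 in Scram+aPD-1, and 4829.6, 4072 and 5523 in ANT008+aPD-1.

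The 9 myeloid markers on the panel summed to between 1068 and 4207 in Scram+IgG, 1218 and 3542 in ANT008+IgG, 1862 and 6484 in Scram+aPD-1, and 4758 and 7785 in ANT008+aPD-1. The 3 NK cell markers summed to between 715 and 3929.6 in Scram+IgG and between 2703 and 3634 in ANT008+aPD-1, and T cells can carry these too. Egfr, the only epithelial marker of the 6 listed that was on the panel, had 2 to 471 counts. The part of other cell types, lane depth and scaling in the spread of respiratory chain transcripts was not tested.

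**Figure D3:**
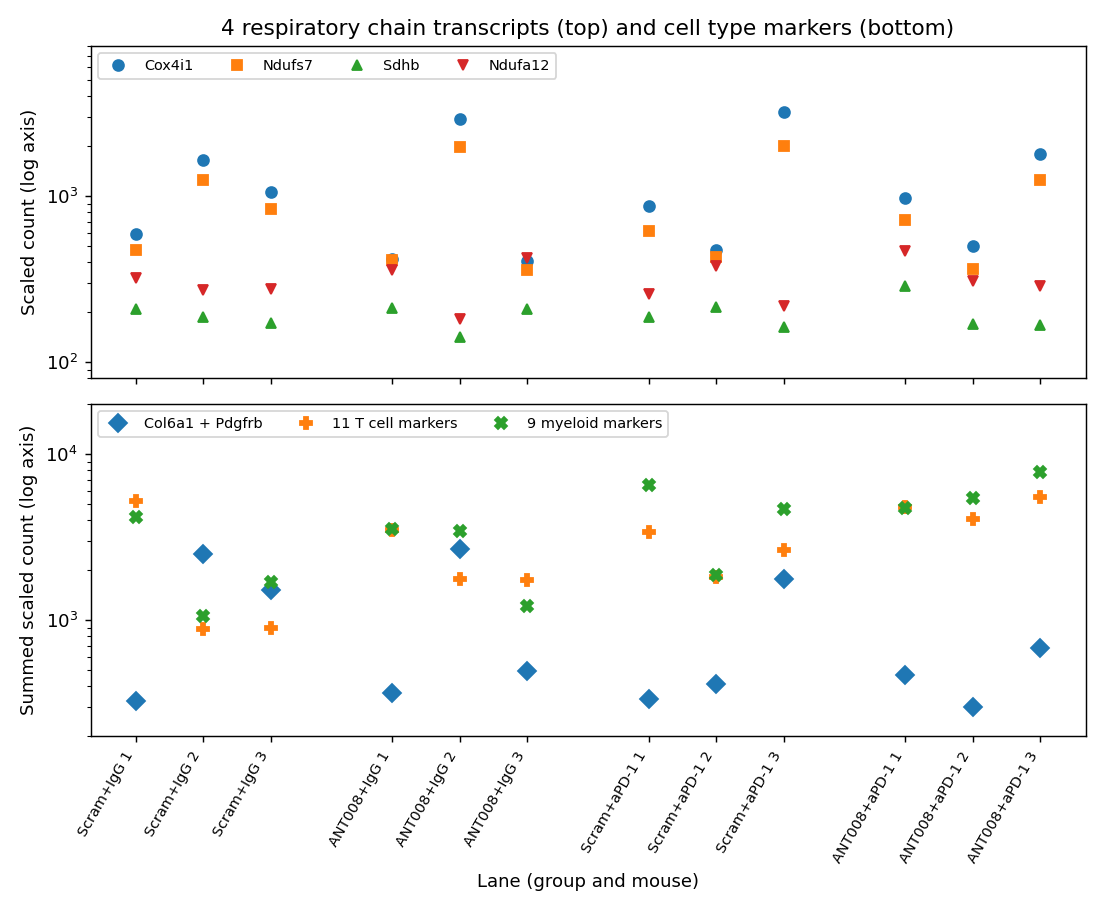
Scaled counts (log axes) by lane of Cox4i1, Ndufs7, Sdhb and Ndufa12 (top), and summed scaled counts of 2 stromal, 11 T cell and 9 myeloid markers (bottom). Cox4i1 and Ndufs7 peak in the lanes where the stromal sum is highest within each group, for example 2697 in ANT008+IgG mouse 2, while Sdhb and Ndufa12 do not.

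ANT008 alone left no measured respiratory chain gene past the threshold. ANT008+IgG was set against Scram+IgG with edgeR's quasi-likelihood test, fitted to the 640 genes above background in at least 3 lanes, among them all 32 members. At a false discovery rate (FDR) below 0.1, 0 of 32 members were called, and so were 0 of 640 genes (0%). At an unadjusted p under 0.05, 0 members passed, against 0.469% of the 640. The members' median log2 difference was 0.02, with 18 above and 14 below 0, against a median of 0.11 over the 640. Single mice set that sign, since the median was −0.61 with 27 of 32 below 0 without ANT008+IgG mouse 2, −0.16 without Scram+IgG mouse 1, and 0.20 to 0.23 without ANT008+IgG mouse 1 or 3 or Scram+IgG mouse 2. It was −0.19 with 25 below 0 when lanes were scaled to their total count, and −0.59 in voom. Ndufs8 had the smallest p among members, with a log2 difference of 0.58 (SE 0.33, edgeR FDR 0.999), and means of 158 ± 38.8 in Scram+IgG and 237 ± 65.9 in ANT008+IgG (SD, n = 3).

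Anti-PD-1 alone gave the same count. In Scram+aPD-1 against Scram+IgG, 0 of 32 members and 0 of 640 genes (0%) were called. At an unadjusted p under 0.05, 0 members and 1.09% of the 640 passed. The members' median log2 difference was 0.05, with 18 above and 14 below 0, against 0.15 over the 640. Its sign also turned with single mice, to −0.33 with 28 below 0 without Scram+aPD-1 mouse 3 and to −0.047 without Scram+IgG mouse 1, and it was between 0.19 and 0.29 without Scram+aPD-1 mouse 1 or 2 or Scram+IgG mouse 2. Total count scaling gave −0.15 with 26 below 0, and voom −0.25. Atp5d and Atp5k had log2 differences of 0.38 and 0.45, but with SEs of 0.55 and 0.77 these lay within the spread between mice.

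With both agents most members were lower in the fit of all 12 lanes, yet none passed the test. In ANT008+aPD-1 against Scram+IgG, 23 of 32 members had a log2 difference below 0, and the median was −0.24 against 0.12 over the 640 genes. The members' median and the count below 0 moved with single mice. Without ANT008+aPD-1 mouse 2 the median was 0.0089 with 15 below 0, and without Scram+IgG mouse 2 it was −0.057 with 17 below 0. It was −0.13 without ANT008+aPD-1 mouse 1, −0.42 without Scram+IgG mouse 1 and −0.74 with 27 below 0 without ANT008+aPD-1 mouse 3. In the same order the 640 genes had 0.37, 0.17, 0.057, 0.099 and −0.064, so the members' median stayed below theirs. Complex I counted 11 of 16 below 0 (median −0.20), complex II 1 of 2 (−0.26), complex III 2 of 3 (−0.53), complex IV 8 of 9 (−0.34) and ATP synthase 1 of 2 (−0.01). The most negative value was that of Ndufa4, −1.099 (SE 0.68, edgeR FDR 0.473), with overlapping mice. Ndufa4 had 3, 358 and 51 counts in ANT008+aPD-1, and the 3 counts of mouse 1 lay below its background of 9.94. The calls at FDR below 0.1 were 0 of 32 members and 0 of 640 genes (0%). At an unadjusted p under 0.05 there were 2 members, Cox7b and Ndufb10, which is fewer in proportion than the 12.8% of the 640. Groups did not overlap for 1 member that was higher (Cox7b), against 7.81% of the 640, and for 2 that were lower (Ndufb10 and Uqcr10), against 5.78%. With 3 mice against 3, an exact two-sided permutation test cannot go below 0.1, which these 3 genes reached.

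Ndufb10, a complex I subunit of the membrane arm, had scaled counts of 430.2, 622 and 531 in Scram+IgG and 252, 353 and 361 in ANT008+aPD-1. It had 424, 602 and 517 in ANT008+IgG and 392, 454 and 373 in Scram+aPD-1, so the combination group lay below all 3 others. The log2 difference from Scram+IgG was −0.68 (SE 0.31, edgeR FDR 0.376), and from Scram+aPD-1 it was −0.31 (SE 0.31, FDR 0.822). Its lowest value, 252, stands for 7 counts.

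Uqcr10 of complex III showed 485, 896 and 749 in Scram+IgG, 455, 1027 and 519 in ANT008+IgG, 611, 521 and 783 in Scram+aPD-1, and 396, 417 and 433 in ANT008+aPD-1. The 3 combination mice were below every other mouse, as for Ndufb10. The share of the 640 genes for which this held was not counted. Lower without overlap from Scram+IgG alone were 5.78% of the 640. The combination values stand for 11, 529 and 36 counts, and the background of mouse 1 was 9.94, so their closeness rests on few counts. The log2 difference from Scram+IgG was −0.77 (SE 0.40, edgeR FDR 0.456). Among the alternatives run, Uqcr10 was called only when lanes were weighted by their quality in limma voom (−0.85, FDR 0.0965). That fit called 156 of 640 genes.

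Cox7b and Ndufa11 had the largest fitted differences and the fewest counts. Cox7b, a small subunit of complex IV, had raw counts of 30, 12 and 32 in Scram+IgG, 44, 7 and 3 in ANT008+IgG, 26, 13 and 4 in Scram+aPD-1, and 8, 18 and 4 in ANT008+aPD-1. It exceeded background in 6 of 12 lanes and in 1 of the 3 combination lanes, where 18 counts met a background of 17.5. Divided by the small sizes of those lanes, the 8 and 4 counts became 288 and 48.1, and the fitted log2 difference from Scram+IgG was 3.58 (SE 1.07, edgeR FDR 0.309). Ndufa11, a membrane-arm subunit of complex I, had 26, 14 and 53 counts in Scram+IgG, 38, 2 and 2 in ANT008+IgG, 33, 31 and 2 in Scram+aPD-1, and 1, 7 and 6 in ANT008+aPD-1, below background in all 3 of the last group, and a log2 difference of 1.75 (SE 0.96, FDR 0.458). With ANT008+aPD-1 mouse 2 left out, so that only the shallow lanes stood for the group, both were called (Cox7b FDR 0.0343, Ndufa11 FDR 0.0447). That fit called 68 of 640 genes. With all 12 lanes, voom with lane weights also called both (FDR 0.0192 and 0.0622), beside 156 of 640 genes. DESeq2 called Cox7b (FDR 0.00579), beside 30 of 640 genes. With both shallow lanes left out, 1 mouse stood for the combination and was assumed to vary like the other groups, and the differences were 1.105 for Cox7b and −0.55 for Ndufa11, neither called.

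**Figure D4:**
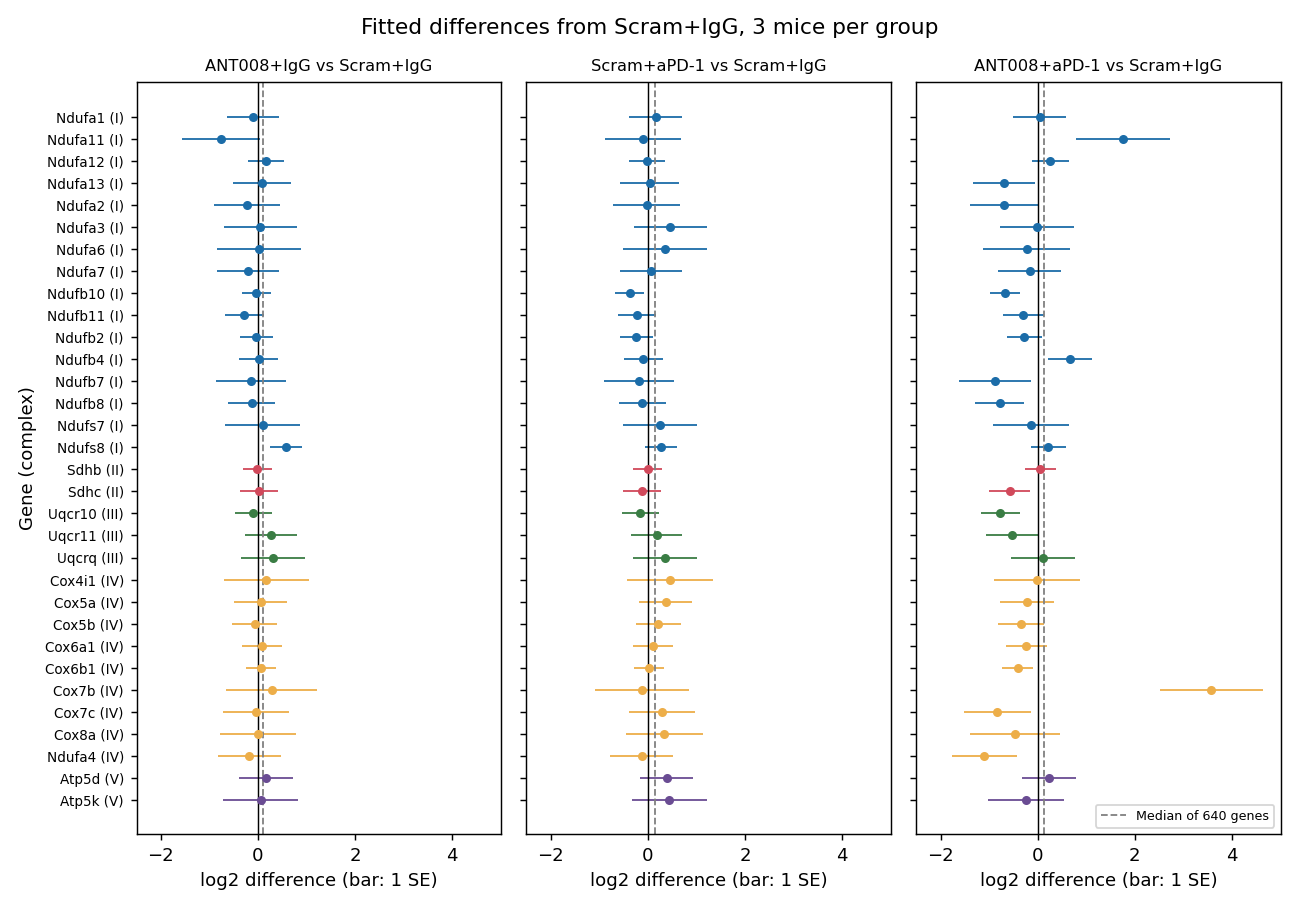
Fitted log2 differences from Scram+IgG (points, with bars of 1 SE) for the 32 transcripts, ordered and coloured by complex, in 3 panels with 3 mice per group, and a dashed line at the median of the 640 genes tested. Most points lie near 0 in the left and middle panels, 23 of 32 lie below 0 at right, and Cox7b (3.58) and Ndufa11 (1.75) lie farthest to the right.

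The combination was also set against each single agent, with the same combination mice in both comparisons. Against ANT008+IgG, 24 of 32 members were below 0, with a median of −0.28 against −0.04 over the 640. Without ANT008+IgG mouse 2 the direction turned, to 0.33 with 11 below 0, and voom gave 0.49 with 9 below 0. The 640 genes had 0.21 and 0.36 in these fits. The members' median was −0.0066 without ANT008+aPD-1 mouse 2, against 0.21 over the 640. It was −0.16 without mouse 1 of that group, −0.71 without its mouse 3, and −0.52 and −0.57 without ANT008+IgG mouse 1 or 3. The calls were 0 of 32 and 0 of 640 (0%), and 2 members, Cox7b and Ndufa11, had an unadjusted p under 0.05, against 7.81% of the 640. Non-overlapping members numbered 1 higher (Cox7b, 6.25% of the 640) and 3 lower (Cox6b1, Ndufb10 and Uqcr10, 7.34%). Against Scram+aPD-1, 27 of 32 were below 0, with a median of −0.45 against −0.04. Without Scram+aPD-1 mouse 3 the median was 0.0052 with 16 below 0, and voom gave 0.081 with 15 below 0. The 640 genes had 0.17 and 0.26 in these fits, so the members' median stayed below theirs. The members' median was −0.68 without Scram+aPD-1 mouse 2. Leaving out mouse 1, 2 or 3 of the combination gave −0.28, −0.25 or −0.82, against −0.087, 0.15 or −0.16 over the 640. Here 0 members and 0 of 640 genes (0%) were called, and Cox7b alone had an unadjusted p under 0.05, against 6.25%. The non-overlapping members were 0 higher (4.53% of the 640) and the same 3 lower (7.34%). Cox7c had a log2 difference of −1.12 from Scram+aPD-1 (SE 0.70, edgeR FDR 0.751), with overlapping mice.

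The interaction asks whether the combination differed from the sum of both single effects. It called 0 of 32 members and 0 of 640 genes (0%), and Cox7b alone had an unadjusted p under 0.05, against 1.41% of the 640. The members' median was −0.50 with 25 of 32 below 0, against −0.17 over the 640. Its sign turned without either of 2 mice. The median was 0.29 with 10 below 0 without ANT008+IgG mouse 2, and 0.060 with 16 below 0 without Scram+aPD-1 mouse 3. The 640 genes had 0.066 and 0.048 in these fits. The members' median was 0.58 in voom and 0.011 with total count scaling, against 0.25 and 0.11 over the 640.

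Other genes of mitochondrial respiration were few. Of 55 listed genes for assembly, expression and related steps, 6 were on the panel and tested, and 0 were called in any comparison (smallest edgeR FDR 0.659). Cox14, a factor in complex IV assembly, had 284, 986 and 680.2 in Scram+IgG, 234, 1557 and 202 in ANT008+IgG, 451, 241 and 2008 in Scram+aPD-1, and 505, 239 and 1035 in ANT008+aPD-1, highest in the same lanes as Cox4i1. Nrf1, the transcription factor whose core was searched, lay between 138 and 193 in the 11 lanes, with 36.0 in ANT008+aPD-1 mouse 1. Tfam, which packages and transcribes mitochondrial DNA, lay between 60.2 and 144. Pdha1, a subunit of pyruvate dehydrogenase, lay between 239.9 and 494, while Cox10, needed for the heme of complex IV, and Ppargc1a, a coactivator of mitochondrial genes, were above background in 9 and 6 lanes.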

How the data were processed

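T cell RNA from 12 tumors was measured on the nCounter metabolic panel. The authors deposited raw counts per probe exported from nSolver for 748 endogenous, 20 housekeeping, 8 negative and 6 positive probes; the deposited table holds no normalization and no comparison columns. No aligner or genome build applies, and other steps are not given in the sources used here. Lanes were grouped by the labels, which give 3 mice per group and show no batch. Lanes were scaled by 3 housekeeping genes, taking their geometric mean, since only these exceeded background (mean plus 2 SD of negatives) in all lanes. The 640 genes above background in at least 3 lanes entered 1 edgeR 4.0.16 quasi-likelihood fit of 4 groups (R 4.3.3), with Benjamini-Hochberg adjustment and FDR below 0.1, checked on simulated data. The fit pools the spread over groups. Alternatives used limma 3.58.1 and DESeq2 1.42.0, other scalings, filters and left-out lanes. Members and lists were chosen with earlier results of these data known. Values are given for the 3 members with the smallest p per contrast, the member with the highest mean per complex, and those not overlapping between ANT008+aPD-1 and Scram+IgG; other genes named by value were chosen after their values were seen. Pseudocount on log2 levels was 1. Depth ran from 5776 to 1486646 endogenous counts per lane, and Wilson 95% intervals cover counting error only. Probe target sequences were not used here. A result on one marker list is not reported here.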

Additional observations from a re-analysis of the deposited data

How the results depend on the processing

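Recomputed under the alternatives, 147 counts of members called stayed at 0 and 8 did not. DESeq2 called 1 member in each of the 3 comparisons with ANT008+aPD-1. Over all genes it called 30 of 640 against Scram+IgG and 5 of 640 against each single agent. Limma voom with sample weights called 1 member in ANT008+IgG against Scram+IgG (Ndufa2), beside 44 of 640 genes. In ANT008+aPD-1 against Scram+IgG it called 3 (Cox7b, Ndufa11 and Uqcr10), beside 156 of 640 genes. In Scram+aPD-1 against Scram+IgG voom called 0 members and 143 of 640 genes. Leaving out 1 mouse at a time gave 0 to 2 calls in each comparison with ANT008+aPD-1 and 0 in the others, and the 2 were Cox7b and Ndufa11 without ANT008+aPD-1 mouse 2. The members' median minus that of all tested genes moved with single mice. Leaving out 1 mouse at a time it ranged from −0.56 to 0.071 in ANT008+IgG and from −0.26 to 0.12 in Scram+aPD-1, both against Scram+IgG. For ANT008+aPD-1 it ranged from −0.49 to 0.12 against ANT008+IgG and from −0.66 to −0.16 against Scram+aPD-1, and for the interaction from −0.51 to 0.23. Voom gave 0.12 against ANT008+IgG and 0.33 for the interaction. For ANT008+aPD-1 against Scram+IgG that value ranged from −0.67 to −0.18 when 1 mouse was left out, was −0.43 without both shallow lanes and was −0.37 without Cox7b and Ndufa11, a choice made after seeing the data. With background subtracted the members' median there was −0.49, and that of all tested genes −0.38. For ANT008+aPD-1 these medians were −0.43 and −0.42 against ANT008+IgG, and −0.64 and −0.48 against Scram+aPD-1.

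Single-gene values of that comparison were recomputed for the 12 members named by rule, and the sign turned as follows. Scaling to the positive controls, which moved the median of all genes from 0.12 to −4.37, gave Cox7b −2.12, Ndufa11 −3.61, Ndufs8 −4.07 and Uqcrq −4.53. Background subtraction gave Ndufa11 −0.081 and Ndufs8 −0.39, TMM and DESeq2 gave Uqcrq −0.14 and −0.11, and voom gave Atp5k 0.051. Without both shallow lanes Ndufa11 was −0.55, Ndufs8 −0.065 and Uqcrq −0.60. With 1 mouse left out the values crossed 0 in 5 of the 12, running from −0.9998 to 0.052 for Atp5k, −0.056 to 2.88 for Ndufa11, −0.77 to 0.0029 for Ndufb11, −0.67 to 0.0032 for Ndufb2 and −0.41 to 0.38 for Uqcrq. The cause was not tested.

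Of the 18 pairs of mice that share a number, 7 had deviations correlated above 0.1 (range −0.64 to 0.78). Of the 36 pairs with unlike numbers, 13 did (range −0.80 to 0.72). Mouse 1 of Scram+IgG correlated at 0.78 with mouse 1 of ANT008+IgG and at 0.76 with mouse 1 of Scram+aPD-1. Mouse 1 of ANT008+IgG and mouse 1 of Scram+aPD-1 correlated at 0.68. Mouse 1 of ANT008+aPD-1 went the other way, at −0.11, −0.11 and −0.25 with these mice. Whether mice that share a number were handled together was not tested. The replicate block called 0 members in every comparison, and gave a median of −0.27 for ANT008+aPD-1 against Scram+IgG. With 5776 counts in ANT008+aPD-1 mouse 1 and 15 members above background there, differences in weakly detected members were not detectable at this depth.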
